A study of Caenorhabditis elegans with 6 samples.

Results

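The genes *ZK813.3*, *ZK813.7*, *ZK813.1*, *Y62H9A.5* and *ule-5* of *Caenorhabditis elegans* lie in 2 tight neighbourhoods of chromosome X, and their transcript levels were lower in *hlh-11* knockout (KO) worms and higher in *hlh-11* overexpression (OE) worms than in the wild type. They are 5 of the 85 genes in a table of mRNA levels. They were taken from it by their position, and the table itself holds only genes whose means moved apart, one of KO and OE above the wild type and the other below. The KO and OE values of these genes therefore served in choosing them, and their changes are given as a description. Calls by a model over the whole table are counted further on beside the share of all genes called, and support nothing about the 5. Of the 85 genes, 60 had a higher and 25 a lower mean in KO, and the 5 neighbour genes belong to the 25.

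RNA with polyA tails was sequenced from whole synchronized young adult worms of 3 genotypes, with 2 libraries per genotype and about 2000 worms per sample, grown at 20 °C on NGM plates with *E. coli* OP50. The wild type is N2, the laboratory reference strain. The KO worms are N2 in which CRISPR/Cas9 left a frameshift in the second exon of *hlh-11*, described in the methods as 1 strain, *hlh-11(ko1)*. The OE worms are N2 labelled as overexpressing *hlh-11*, and the sources used here do not say which construct or promoter these libraries carried. The question put to the libraries was which transcripts change when HLH-11 is lost or in excess.

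HLH-11 is a basic helix-loop-helix transcription factor, related to human TFAP4 (AP4). Factors of this kind bind short E-box motifs in DNA as dimers and can raise or lower transcription of nearby genes. *ule-5* belongs to the *ule* genes, named for uterine lumen expressed proteins, which are secreted and accumulate in the uterus of ageing hermaphrodites. For the ZK813 genes and *Y62H9A.5* no role is given here, and *Y62H9A.5* carries the symbol *stha-3* in RefSeq.

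All 5 are protein-coding genes on chromosome X (build WBcel235, Ensembl release 115). In the first neighbourhood, *ZK813.3* (WBGene00022822) occupies positions 3441839 to 3442458 on the plus strand. It has 2 exons with 575 exon bases and encodes 157 residues. *ZK813.7* (WBGene00045394) follows on the same strand at 3444814 to 3445197, as 1 exon of 384 bases that encodes 127 residues and has no annotated UTR. *ZK813.1* (WBGene00022820), also on the plus strand at 3446311 to 3446935, has 545 exon bases and encodes 145 residues. The intervals are 2355 bases between *ZK813.3* and *ZK813.7* and 1113 bases between *ZK813.7* and *ZK813.1*, so that the 3 genes span 5.097 kb. *ZK813.2*, a plus-strand gene that is not in the table, lies between *ZK813.3* and *ZK813.7*.

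The second neighbourhood lies 8.44 Mb further along the chromosome. *Y62H9A.5* (WBGene00013393) occupies 11882144 to 11882900 on the minus strand, with 4 exons, 565 exon bases and 165 residues. *ule-5* (WBGene00013394, sequence name Y62H9A.6) lies at 11883127 to 11884042 on the plus strand, with 3 exons, 635 exon bases and 181 residues. The pair is divergent, with both genes starting at the 226-base interval between them. No annotated gene overlaps any of the 5 genes. How alike their sequences are, and whether reads could be shared between them, was not analysed here.

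**Figure D1:**
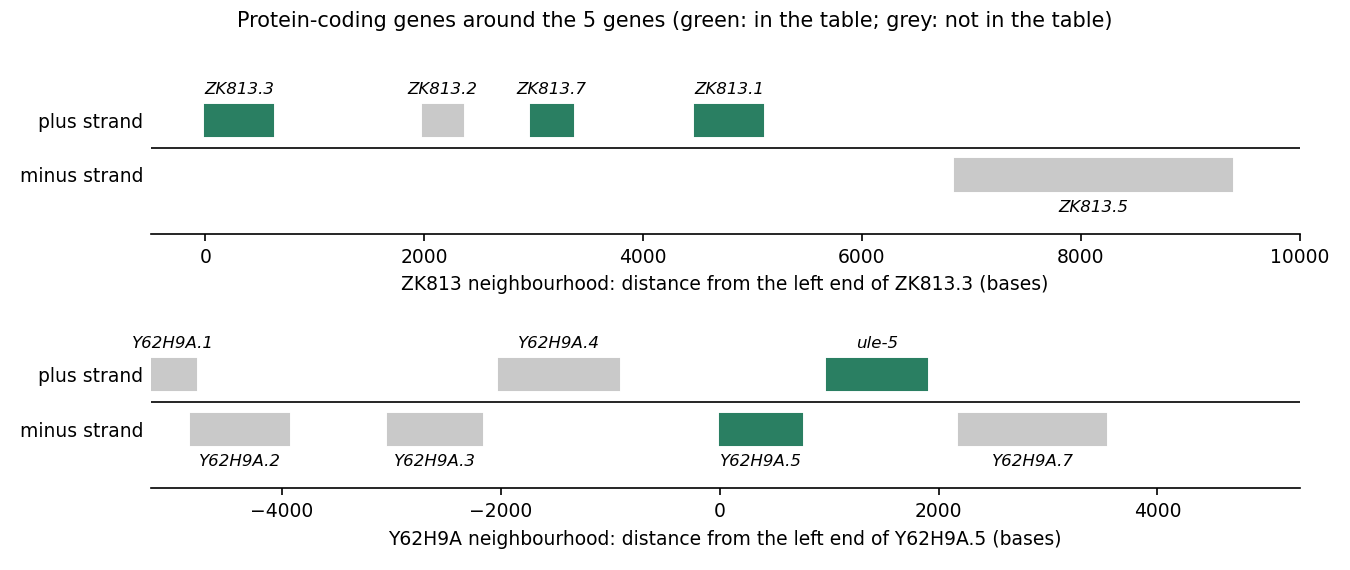
Protein-coding genes around the 5 genes, drawn to scale on each strand, with distance in bases from the left end of *ZK813.3* (top) or of *Y62H9A.5* (bottom). Green boxes are genes in the table and grey boxes are annotated genes that are not; the 3 ZK813 genes share a strand, and *Y62H9A.5* and *ule-5* point away from each other.

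The tightness of the neighbourhoods can be read from the next nearest genes of the table. Among the 85 genes, 5 pairs lie within 10000 bases of each other, a window chosen after the positions were seen. Of these pairs, 4 are formed by the genes described here, which were picked for lying close together, so this count describes the choice. The other one is *msp-49* with *msp-50*, sperm protein genes with 5047 bases between them. The closest other table gene on X lay 521.2 kb from *ZK813.1* (*C16B8.3*) and 169.9 kb from *Y62H9A.5* (*col-180*, a cuticle collagen gene). Both of these moved the other way, with mean levels of 1.37 times the wild type in KO and 0.769 times in OE for *C16B8.3*, and 7.43 and 0.511 times for *col-180*. The annotated genes that flank the 5 within their neighbourhoods (*ZK813.2*, *ZK813.5*, *sax-3*, *Y62H9A.1* to *Y62H9A.4* and *Y62H9A.7*) are not in the table and were not analysed here.

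Levels are given as RPKM, that is, read counts scaled to both transcript length and library size, so they are levels per length. The libraries held 16538554 to 24023096 reads, totals inferred from the steps of the RPKM values. Each of the 5 genes had 714 to 5512 inferred reads in every library. *hlh-11* itself was not analysed here, so the genotype labels have no check from their target. That the 2 libraries of a genotype came from separate cultures is not stated, and the spread given is that between these libraries, which may be technical. In RNA of whole worms, fewer cells of a type and less RNA per cell cannot be told apart. The KO and OE comparisons share the same 2 wild-type libraries.

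*ZK813.3* had 146 and 137 RPKM in the wild-type libraries, 93.4 and 107.9 RPKM in the KO libraries and 223 and 221 RPKM in the OE libraries. The 3 genotypes did not overlap, with OE highest and KO lowest. Such separation from the wild type, also given below for the other genes, held for 84 of the 85 table genes in KO and 84 in OE. Its mean was 142 ± 6.20 RPKM (SD, n = 2) in the wild type and 101 ± 10.3 in KO, a ratio of 0.710 ± 0.0789. In OE the mean was 222 ± 0.838 RPKM, or 1.57 ± 0.0689 times the wild type. The 2 OE libraries lay closer together for this gene than for any of the other four.

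*ZK813.7*, the single-exon gene in the middle of the ZK813 stretch, had 172 and 158 RPKM in the wild-type libraries, 110 and 134 in those of KO and 261 and 284 in those of OE. Again no KO library reached a wild-type library and no OE library came down to one. Its KO mean of 122 ± 16.7 RPKM was 0.738 ± 0.11 times the wild-type mean of 165 ± 9.72, the KO ratio closest to 1 among the 5 genes. Its OE mean of 272 ± 15.9 RPKM was 1.65 ± 0.137 times the wild type.

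*ZK813.1*, at the right end of the stretch, had the lowest level of the 5 genes in every library. Its levels were 89.4 and 93.9 RPKM in wild-type worms, 58.3 and 70.1 in KO and 157 and 169 in OE. The genotypes did not overlap. The KO mean of 64.2 ± 8.34 RPKM was 0.701 ± 0.0941 times the wild-type mean of 91.7 ± 3.18. The OE mean of 163 ± 8.11 RPKM was 1.78 ± 0.108 times the wild type, the highest OE ratio among the 5.

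*Y62H9A.5*, on the minus strand of the second neighbourhood, had 173 and 179 RPKM in wild-type worms, 103 and 130 in KO and 281 and 268 in OE. The KO libraries lay below and the OE libraries above both wild-type libraries. Its KO mean of 116 ± 19.0 RPKM was 0.661 ± 0.109 times the wild-type mean of 176 ± 4.79, the lowest KO ratio among the 5. Its OE mean of 274 ± 9.65 RPKM was 1.56 ± 0.0693 times the wild type, the lowest OE ratio among the 5.

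*ule-5*, its divergent partner, was the most abundant of the 5 per length, with 219 and 206 RPKM in wild-type worms, 132 and 161 in KO and 335 and 361 in OE. The genotypes were again separate. The KO mean of 147 ± 20.3 RPKM was 0.690 ± 0.10 times the wild-type mean of 213 ± 9.39, and the OE mean of 348 ± 18.6 RPKM was 1.63 ± 0.113 times the wild type. Between KO and OE worms *ule-5* spanned a ratio of 2.37. The same ratio was 2.36 for *Y62H9A.5*, 2.54 for *ZK813.1*, 2.24 for *ZK813.7* and 2.21 for *ZK813.3*.

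**Figure D2:**
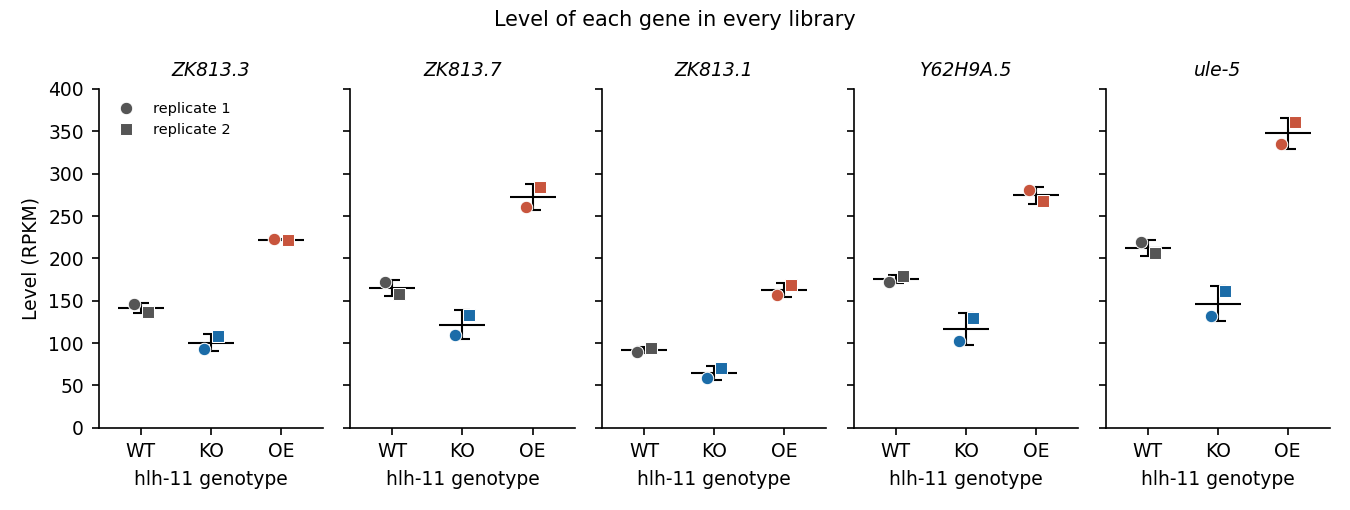
Level of each gene in RPKM (vertical axis, from 0) in the 2 libraries of each *hlh-11* genotype. Circles are replicate 1, squares replicate 2, horizontal lines the mean of 2 libraries and error bars the SD. In all 5 panels KO lies lowest and OE highest, from 58.3 RPKM for *ZK813.1* in KO to 361 RPKM for *ule-5* in OE. The selection of the table fixed this order of means for every gene with a lower KO mean.

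The KO ratios of the 5 genes, 0.661 to 0.738, differed by less than the SD of any of them (0.0789 to 0.11). That SD includes a difference between the KO libraries that all 5 shared, so it does not decide their order. Relative to the wild-type mean, *Y62H9A.5* was lowest and *ZK813.7* highest in each KO library. They stood at 0.585 and 0.666 in KO replicate 1 and at 0.737 and 0.809 in KO replicate 2. The order was not tested. The OE ratios ran from 1.56 to 1.78. The interval between the extremes, *Y62H9A.5* and *ZK813.1*, exceeded the SD of both, but it was chosen as the widest of the set and was not tested. On the log2(RPKM + 0.5) scale all 5 moved further in OE than in KO, as did 35 of the 85 genes in all. The other 20 genes with a lower KO mean also had the larger median difference in OE, 0.84 against -0.61 in KO. The trait was thus not particular to the 5, though not every gene of that group had it. Among the 5, *Y62H9A.5* came closest to equal and opposite changes, with a difference from the wild type of -0.60 in KO and 0.64 in OE. *ZK813.1* was the most uneven, with -0.52 and 0.83.

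In limma, fitted to all 85 genes with p-values adjusted by Benjamini-Hochberg over all of them, all 5 neighbour genes had an adjusted p under 0.05 and were lower in KO, where 94.1% of the table passed in either direction, 23.5% of it as lower. All 5 were also higher in OE, where 89.4% passed in either direction, 29.4% as higher. The same contrasts selected the table, so nothing is read from these counts. The log2 differences of the 5 genes from the wild type were -0.44 to -0.60 in KO and 0.64 to 0.83 in OE, each with an SE of 0.16. Whether the 5 passed in KO depended on 1 library. Without KO replicate 1, which was the lower KO library for all 5 genes, the KO differences were -0.30 to -0.44. That fit set 1 KO library against 2 of the wild type. Calls of lower genes became fewer over the whole table as well, so the loss was not particular to the 5. Without WT replicate 1, *ZK813.7* did not pass in KO, at -0.38.

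The level of the table as a whole moved against the 5 genes. The median log2 difference over all 85 genes was 0.52 in KO and -0.42 in OE, against -0.52 and 0.71 over the 5. Centring each library on the median of its 85 genes moved every difference by -0.34 in KO and 0.38 in OE. The 5 genes then stood at -0.78 to -0.94 in KO and 1.02 to 1.20 in OE, in the same directions. The table was selected, and 60 of its 85 genes had a higher mean in KO, so its median follows the selection. The centred values are therefore no better estimate of the changes, and centring enlarges any gene on the less common side. The other 20 genes with a lower KO mean had medians of -0.61 in KO and 0.84 in OE on the uncentred scale. The 5 neighbour genes were thus not at the extremes of that group, whose KO ratios ran from 0.0948 to 0.889.

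**Figure D3:**
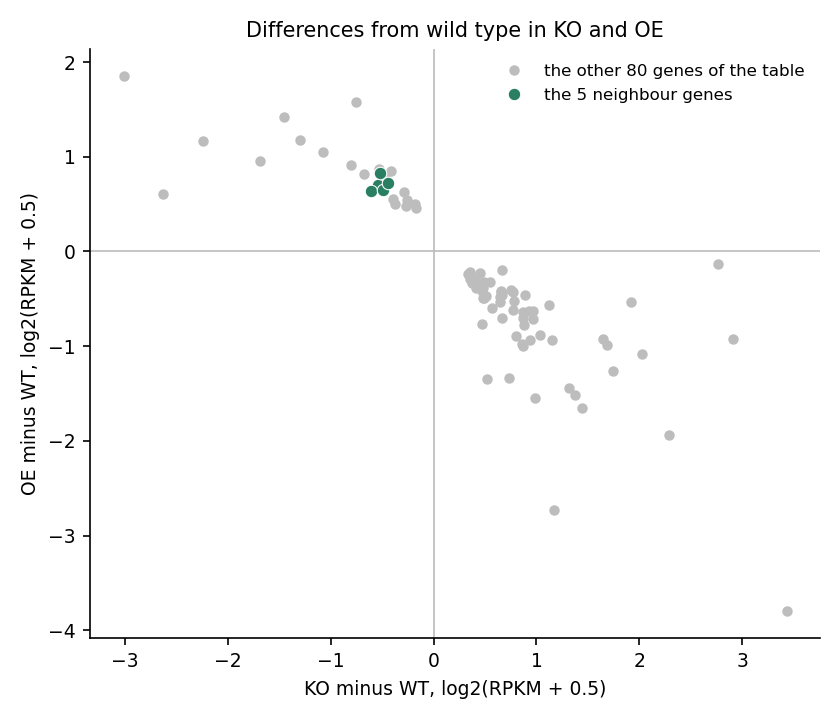
Difference from the wild type in KO (horizontal axis) and OE (vertical axis), both in log2(RPKM + 0.5), for the 5 neighbour genes in green and the other 80 genes of the table in grey. The 5 lie close together at -0.44 to -0.60 in KO and 0.64 to 0.83 in OE, and the empty quadrants reflect how the table was selected.

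Both libraries of a genotype lay beyond both wild-type libraries for all 5 genes, which was also so for 84 of the 85 genes in KO (98.8%) and for 84 in OE (98.8%). The 2 KO libraries differed from each other in the same direction for all 5. KO replicate 2 was 1.16 to 1.26 times KO replicate 1, as it was higher for 49 of the 85 genes and for 17 of the other 20 genes with a lower KO mean. Relative to the wild-type mean of each gene, KO replicate 1 stood at 0.585 to 0.666 and KO replicate 2 at 0.737 to 0.809, so that these ranges did not overlap. In the wild type, replicate 1 was the higher library for 3 of the 5 genes, for 66 of the 85 and for 18 of those other 20. In OE replicate 1 was the lower library for 3 of the 5, for 67 of the 85 and for 13 of those other 20. The 5 genes share their libraries, and their moving together within a genotype counts as 1 observation per library.

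Ratios between neighbours within a library take out whatever moves a whole library. *ZK813.7* stood at 1.15 to 1.28 times *ZK813.3* over the 6 libraries, while *ZK813.3* itself varied 2.38-fold. *ule-5* stood at 1.15 to 1.35 times *Y62H9A.5*, while *ule-5* itself varied 2.73-fold. For these pairs the ratio thus varied less than the levels, which moved with genotype. The table was selected on that movement, and all 5 genes moved to the same sides by similar factors. A steadier ratio was therefore largely set beforehand, and it is given as a description only. Pairs with *ZK813.1* varied more and are given below. The ratio of *ule-5* to *ZK813.3*, genes of different neighbourhoods, varied as little, from 1.42 to 1.63. A coefficient of variation (CV) over the 6 libraries was 4.07% for *ZK813.7* over *ZK813.3*, 5.71% for *ule-5* over *Y62H9A.5* and 4.51% for *ule-5* over *ZK813.3*. Counting error alone, from the inferred reads, gives 2.51% to 4.63% for the first of these ratios and 2.09% to 3.99% for *ule-5* over *Y62H9A.5*. It gives 2.25% to 4.18% for *ule-5* over *ZK813.3*. The observed CV lay within this range for the first ratio and above it for the others.

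Of the ratios between neighbours, that of *ZK813.1* to *ZK813.3* varied most. It was 0.648 ± 0.0508 (SD, n = 2) in the wild type, 0.637 ± 0.0178 in KO and 0.734 ± 0.0393 in OE. Both OE libraries had a higher ratio than the other 4, and the CV over the 6 libraries was 8.30%. This pair was singled out after its values were seen and the difference was not tested. The ratio of *ZK813.1* to *ZK813.7* ranged from 0.520 to 0.602, with a CV of 7.04%.

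**Figure D4:**
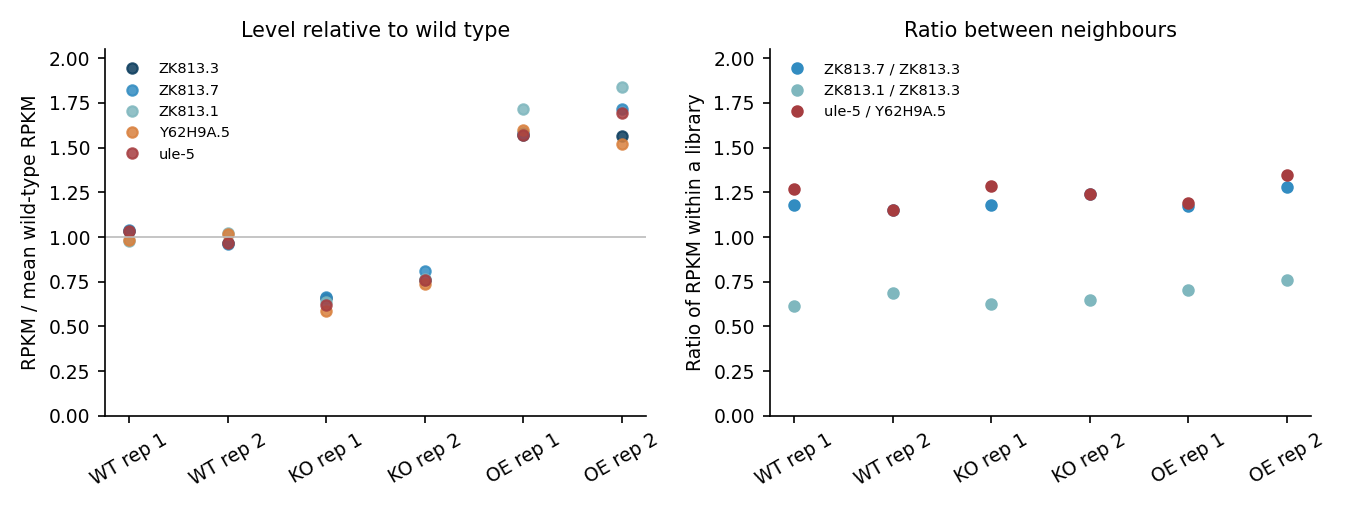
Left, level of each gene divided by its own wild-type mean (no unit) in each of the 6 libraries; right, ratio of RPKM between neighbours within a library (no unit). The 5 genes stand at 0.585 to 0.809 in the KO libraries and 1.52 to 1.84 in the OE libraries, while *ZK813.7* over *ZK813.3* stays between 1.15 and 1.28, overlapping in part with *ule-5* over *Y62H9A.5*.

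In order of mean level per length, *ule-5* was first and *ZK813.1* last in all 3 genotypes. *Y62H9A.5* and *ZK813.7* could not be ordered beyond their spread, at 176 ± 4.79 and 165 ± 9.72 RPKM in the wild type and 274 ± 9.65 and 272 ± 15.9 RPKM in OE, and in KO *ZK813.7* had the higher mean. The order also depends on the length by which reads were divided. The length inferred from the RPKM values was 577 bases for *ZK813.3* and 636 bases for *ule-5*, within 2 bases of their annotated exon length. It was 1.08 times the annotated length for *Y62H9A.5*, 1.26 times for *ZK813.7* and 1.29 times for *ZK813.1*. If the same reads were divided by the annotated length, *ZK813.7* would stand at 208 RPKM in the wild type. That is above *Y62H9A.5* at 190 RPKM, and *ZK813.1* would stand at 118 RPKM. In KO *ZK813.7* would then stand at 154 RPKM, above *ule-5* at 147 RPKM. Reads outside the annotated exons would not count at that length, and their number is not known, so these values may be too high. Ratios of 1 gene between genotypes do not involve its length. Among all 85 genes, *ule-5* ranked 15 in the wild type, 33 in KO and 11 in OE, and *ZK813.1* ranked 39, 53 and 25.

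The genes have short transcripts, a feature the choice did not use. Their exon bases ran from 384 to 635 with a median of 565, against a median of 1025 over the 85 genes. Their wild-type levels, with a median of 165 RPKM, were above the median of 75.8 RPKM over the table. No test was made of either, since the 5 genes were picked.

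Likeness of profiles was measured as the root mean square (RMS) difference of log2(RPKM + 0.5) over the 6 libraries, each gene taken relative to its own wild-type mean. For each of the 5 genes, the most alike gene lay in the other neighbourhood or on another chromosome. The nearest of the other 84 genes to *ule-5* was *ZK813.7* (RMS 0.0576) and then *ZK813.3* (0.0590), while its divergent neighbour *Y62H9A.5* came at place 5 (0.0870). For *ZK813.3* the nearest gene was *ule-5*, ahead of *ZK813.7* (0.0672). For *Y62H9A.5* the nearest was *ZK813.3* (0.0863), followed by *ule-5*.

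For *Y62H9A.5* the other 4 neighbour genes held places 1 to 4 (RMS 0.0863 to 0.131), ahead of every other gene of the table. Genes outside both neighbourhoods were nearest of all for *ZK813.7* and *ZK813.1*. With the 5 neighbour genes left out of the ranking, *clec-10*, a C-type lectin gene on chromosome II, was among the 3 nearest genes of each of the 5. In the full ranking it was at place 1 for *ZK813.7* (RMS 0.0563), at place 3 for *ZK813.3* and *ule-5*, at place 4 for *ZK813.1* and at place 5 for *Y62H9A.5*. *T03D3.5*, on chromosome V, was the nearest gene of all to *ZK813.1* (0.0489) and, with the neighbour genes left out, among the 3 nearest of 4 of the 5. On the same ranking *srlf-7* on chromosome IV was among the 3 nearest of 4. *asp-13*, an aspartyl protease gene on V, was so for *ZK813.3* (0.117), and *C27C7.1* on I for *ZK813.1* (0.118). The mean of *clec-10* was 0.717 times the wild type in KO and 1.72 times in OE, and that of *T03D3.5* 0.683 and 1.85 times. Since all these genes were selected on the same 6 libraries, likeness is a description only.

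Most other table genes on chromosome X moved the other way, as did most of the table, where 60 of the 85 genes had a higher KO mean. Of the 15 other table genes on X, 13 had a higher and 2 a lower mean in KO, with median log2 differences of 0.66 in KO and -0.42 in OE. With limma, 13 of these were higher and 1 lower in KO, where 70.6% of the whole table was higher and 23.5% lower. In OE 2 of them were higher and 11 lower, where 29.4% of the whole table was higher and 60% lower. KO replicate 1 was the lower KO library for 4 of these 15 genes, against all 5 of the neighbour genes. It was also the lower one for 17 of the other 20 genes with a lower KO mean, so this was not particular to the 5.

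Few relatives by name were in the table. Of the 5 annotated *ule* genes, *ule-5* was the only one present. The table held 3 of the 7 annotated protein-coding genes with ZK813 names and 2 of the 16 with Y62H9A names, counting *ule-5*. The genes that are not in it have no value here, so whether the rest of either neighbourhood moved was not analysed here.

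Of the cell type lists, those for sperm and cuticle had members in the table. By limma, the 6 sperm genes in the table all passed as higher in KO and as lower in OE, where 70.6% of the whole table passed as higher in KO and 60% as lower in OE. Their summed level was 636 to 806 RPKM in wild-type worms, 1288 to 1328 in KO and 417 to 489 in OE. All 7 cuticle collagen genes passed as higher in KO and 5 of them as lower in OE, the latter a share near that of the whole table, with sums of 5404 to 6024, 8018 to 8673 and 4268 to 4567 RPKM. The table held 0 genes of the lists for oocytes and embryos, intestine, body wall muscle and neurons, and the part of any tissue in the levels of the 5 genes was not tested.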

How the data were processed

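Polyadenylated RNA was sequenced on a HiSeq2500. Build WBcel235 and the tools TopHat2, DESeq2 and FastQC 0.11.5 are named in the submitters' processing notes, while the sources used here do not say how reads were counted or whether strand was used. The authors deposited RPKM values, already selected to 85 genes, with 1 column per library. All 85 identifiers were matched to symbols and to the Ensembl 115 annotation. The 5 genes and the gene lists were chosen with earlier results of these data known. For each of the 5, the 3 other genes with the smallest RMS profile difference were also named.

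Means, SDs (n = 2) and ratios of means were computed from RPKM. A linear model per gene (limma 3.58.1, R 4.3.3) was run on log2(RPKM + 0.5) of all 6 libraries with no filter (constant prior, two-sided, Benjamini-Hochberg over 85 genes, threshold 0.05). Every gene received the pooled SD of 0.157. The pseudocount understates changes of low genes. Whole reads were inferred as the library totals and gene lengths for which all 510 values are whole within 1e-06 reads. Totals were accepted only if 3 or more genes fitted them at annotated length, and 61 genes came within 10% of that length. Both steps were run on simulated data, under narrower conditions than those of the libraries. The simulated lengths lay within about 10% of the annotated length, which leaves out *ZK813.7* (1.26 times) and *ZK813.1* (1.29 times). The simulated noise was normal, with an SD of 0.157 for every gene, as the model assumes. Alternatives covered the pseudocount, a filter, a replicate block, each library left out, 2 genotypes only, median centring, limma-trend and, chosen after seeing the data, limma voom on the inferred reads.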

Additional observations from a re-analysis of the deposited data

How the results depend on the processing

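Over the 14 settings the log2 differences of the 5 genes from the wild type ran from -0.94 to -0.30 in KO and from 0.60 to 1.20 in OE. Several settings (the filter, the replicate block, limma-trend and the third genotype in the fit) cannot move a fold change here, and the genes were selected for these directions, so the ranges are no sign of stability. With each library left out in turn, 0 to 5 of the 5 genes passed in KO, the 0 being without KO replicate 1, and 5 in OE. Over all 85 genes, leaving out libraries gave 60 to 82 calls in KO and 60 to 80 in OE, against 80 and 76 with all libraries. Where 1 library of a genotype remained, it was assumed to vary like the others. Median centring gave 48 calls in OE (25 higher and 23 lower, against 25 and 51) and 63 in KO (38 higher and 25 lower, against 60 and 20), and all 5 genes passed in both. Limma voom on the inferred reads gave 82 calls in KO and 84 in OE. The filter at a mean of 2 RPKM left out 0 genes. With the replicate block, 79 genes passed in KO and 73 in OE, with all 5 neighbour genes in each. Deviations of same-numbered libraries correlated at -0.14 (wild type with KO), -0.11 (wild type with OE) and -0.13 (KO with OE), and the libraries were taken to share only a number. With 2 libraries per genotype, differences near the log2 SE of 0.16 could not be resolved.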
